A study of Drosophila melanogaster with 4 samples.

Results

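Short H3K36me1-enriched regions that lie close to each other on the autosomes were described, and it was asked whether the other lists of the series fuse them into broad domains. A region of replicate 1 was a member if it lay on 2L, 2R, 3L or 3R, was under 5000 bp long, lay less than 1000 bp from at least 1 neighbouring region of the same list, and overlapped a region of replicate 2 by at least 1 bp. The rule was met by 760 of the 5434 regions of replicate 1, which are 17.8% of its 4262 regions on these 4 arms. Length, spacing and the presence of a replicate 2 region were therefore set by the rule and are given as description.

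All samples came from Drosophila melanogaster embryos of the wild-type strain Oregon-R, 14 to 16 hours old, laid by flies kept in population cages. The series held 2 replicates precipitated with H3K36me1 antibody and 2 input samples, which were sheared chromatin without the antibody. Each replicate had a list of regions enriched over its own input, and 1 further list covered the set of replicates. The lists were of unequal size. On the autosomal arms, replicate 1 had 4262 regions, replicate 2 had 3539 and the set list had 6228. No other genotype, stage or treatment was included, and whole embryos mix all cell types, so a region cannot be assigned to a tissue. Whether both replicates came from different collections of embryos is not stated in the labels, and their spread can be purely technical. Sequencing depth is unknown, because the lists give positions and a score per region and no read numbers, and all values here describe 1 pair of replicates with no test.

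H3K36me1 denotes histone H3 that carries a single methyl group at the lysine called K36. Methylation of this lysine occurs mainly within transcribed genes, where Set2 places the trimethylated form behind elongating RNA polymerase II and where other enzymes, among them Ash1, place lower forms. In flies the monomethylated form has been found mostly over introns of long active genes. Enriched sequence can be called as long domains or as a row of shorter pieces, and a link of either to introns was not tested here. Positions are those of FlyBase release 5 with both ends included, and no gene was assigned to a region, because the only annotation used was a table of release 6 genes.

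The members had a median length of 2454 bp (interquartile range from 1954 to 3391 bp, range 1302 to 4950 bp) and covered 2.06 Mb together. They lay in 489 clusters, a cluster being a run of successive replicate 1 regions in which every gap was under 1000 bp. Of these clusters 345 held 2 regions, 99 held 3 and 45 held 4 or more, with a highest number of 9. In 288 clusters, with 494 of the members, all regions were short. The other 201 clusters, with 266 members, also held a region of 5 kb or more, and 108 of them held one of 10 kb or more. Clusters of short regions had a median span of 5628 bp, and 14 of the 288 spanned 10 kb or more. Most clusters of short regions were thus small, and joining every gap inside them would have made a domain of 10 kb in few cases.

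Members were found on all 4 arms in similar density. There were 7.39 members per Mb on 2L, 8.28 on 2R, 9.21 on 3L and 6.77 on 3R, and they made up 17.5%, 17.2%, 20.1% and 16.4% of the regions of these arms. Windows of 1 Mb held a median of 8 members, and 2 of the 95 full windows held none. The fullest window lay on 2R from 7000001 to 8000000, with 30 members among 78 regions, which was also the highest number of regions in any window. The next window held 18. When the members were defined in replicate 2 by the same rule, the window on 2R held 21, and it was 1 of 4 windows with at least that number, the highest being 27. Replicate 2 thus did not place this window first.

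The values just inside and just outside the limits of the rule were as follows. The longest member lay on 2L from 8558009 to 8562958, was 4950 bp long and scored 0.946. The shortest region just beyond the limit of length lay on 2R from 9807888 to 9812887, was 5000 bp long and scored 0.808. The widest gap accepted was 998 bp, on 2R between the regions that begin at 13711207 and 13713528, and the narrowest gap refused was 1003 bp, on 2R between those that begin at 3411705 and 3414608. The smallest overlap with replicate 2 was 2 bp, at a member on 3R from 1111425 to 1112745.

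Replicate 2 left most members apart. A member was called joined if 1 region of the other list overlapped it and a neighbour less than 1000 bp away. In replicate 2, 300 members (39.5%) were joined, against 11.5% of all autosomal regions of replicate 1 and 31.1% of those with a neighbour under 1000 bp. The members had to overlap replicate 2 to be chosen, which raises their share over these backgrounds by construction. The list for the set of replicates joined 457 members (60.1%), against 21.3% of all autosomal regions and 57.7% of those with a close neighbour. The members' share was thus near that of close-set regions in general, which include the members themselves. Both lists joined 278 members, the set list alone joined 179, replicate 2 alone joined 22, and neither joined 281 (37.0%).

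Few of the 760 members, joined or not, lay in a broad domain of replicate 2. The longest replicate 2 region that overlapped a member was under 5 kb for 613 members (80.7%), from 5 to under 10 kb for 87 (11.4%) and 10 kb or more for 60 (7.89%). The share at 10 kb or more was 9.27% for all autosomal regions of replicate 1, which include regions that were themselves broad, and 1.87% for all short ones. In the set list 336 members (44.2%) lay in regions under 5 kb, 220 (28.9%) in regions of 5 to under 10 kb and 204 (26.8%) in regions of 10 kb or more. The backgrounds for the last share were 20.0% for all autosomal regions and 9.05% for all short ones. Short matched regions with no neighbour under 1000 bp, 1316 in number, lay in regions of 10 kb or more in 4 cases (0.304%) in replicate 2 and in 58 cases (4.41%) in the set list. Lying near another region is what the rule asked for, so these differences in share are a description of the choice.

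**Figure D1:**
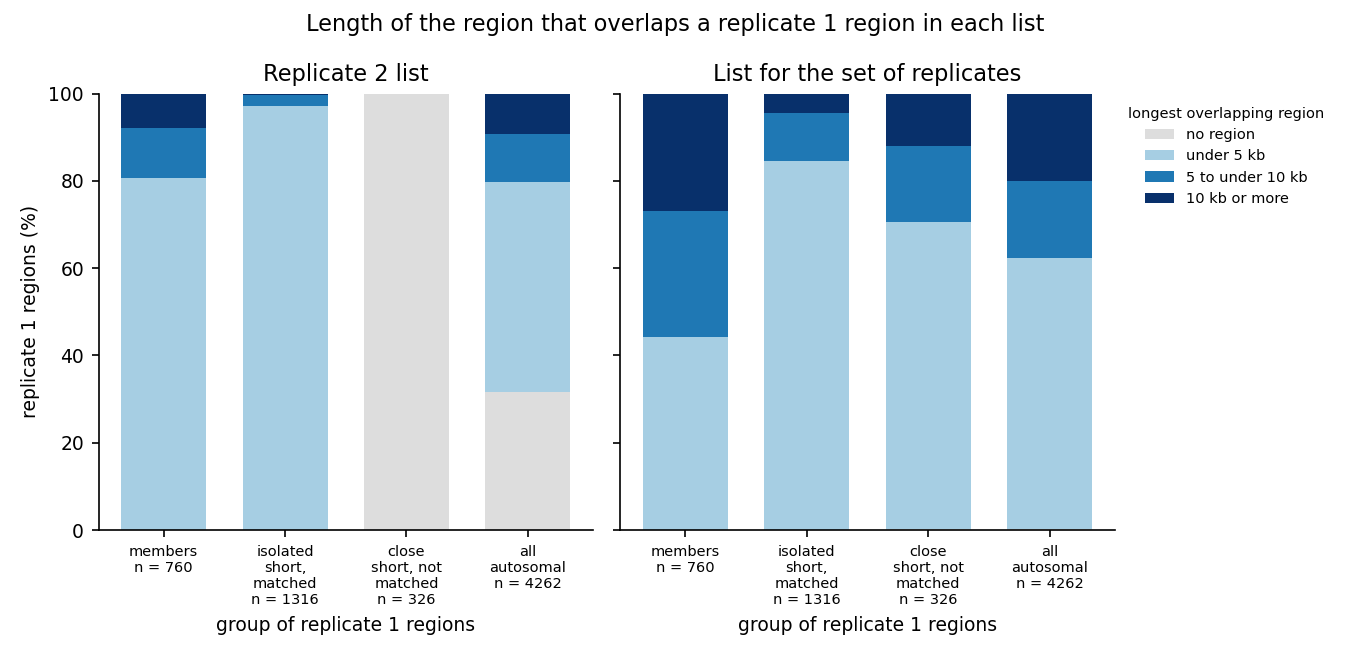
Stacked bars give the percentage of replicate 1 regions (y axis) by the length of the longest region that overlaps them in replicate 2 (left) and in the set list (right), for 4 groups of regions (x axis). Regions of 10 kb or more overlap 7.89% of the members in replicate 2 and 26.8% in the set list.

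Members within broad regions of replicate 2 mostly shared them with a region that was already broad in replicate 1. Of the 60 members within replicate 2 regions of 10 kb or more, 40 shared that region with a replicate 1 region of 10 kb or more and 14 with one of 5 to under 10 kb. Only 6, or 0.789% of all members, lay in a replicate 2 domain that overlapped short regions and no longer one. These 6 lay in 2 domains, both on 3L. The first ran from 7836763 to 7847713 (10.95 kb, score 0.925) and the other from 22989328 to 22999819 (10.5 kb, score 0.823), and each took in 3 members. In the set list the 204 members within broad regions divided into 98 (48.0%), 66 and 40 in the same order, and the last are 5.26% of all members.

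The regions that did the joining were measured as well. Replicate 2 had 190 regions that joined a member to a close neighbour, with a median length of 5021 bp. Of the 190, 45 (23.7%) were 10 kb or more, and 33 of these overlapped a replicate 1 region of 10 kb or more. Short regions only were overlapped by 100 of the 190, with a median of 3412 bp. Of the 100, 71 were under 5 kb, 27 from 5 to under 10 kb and 2 of 10 kb or more. The set list had 287 joining regions, of which 133 (46.3%) were 10 kb or more. Of the 287, 153 overlapped short regions only, with a median of 6047 bp, and 16 of these (10.5%) reached 10 kb. The longest of the 16 was 18.1 kb long, on 3L from 20924392 to 20942514, and overlapped 5 regions of replicate 1. The 72 joining regions of the set list that overlapped a replicate 1 region of 10 kb or more had a median of 23.8 kb, against 14.6 kb for 45 such regions of replicate 2.

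**Figure D2:**
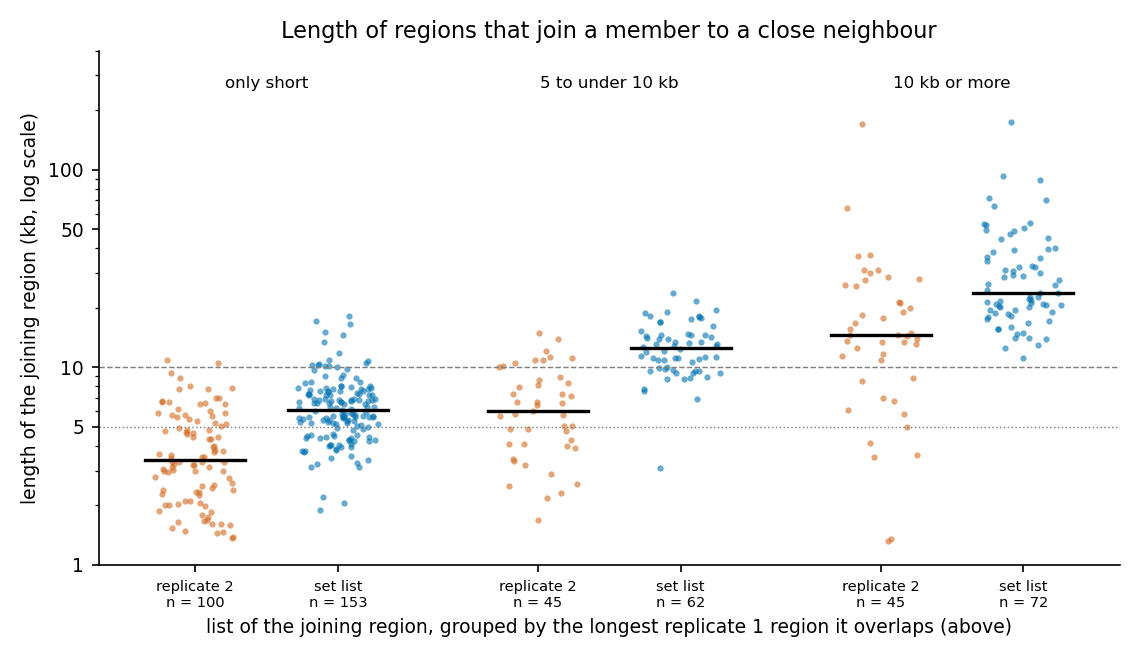
Each point is 1 region that joins a member to a close neighbour, with its length on a log axis (kb), by list and by the longest replicate 1 region it overlaps; black bars are medians, and the dotted and dashed lines mark 5 and 10 kb. Among regions that overlap short regions only, 2 of 100 in replicate 2 and 16 of 153 in the set list lie at or above 10 kb.

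Many of the joins in replicate 2 did not enclose the regions that they joined. There were 632 gaps under 1000 bp beside a member, and 1 replicate 2 region bridged 207 of them (32.8%). Of all 911 such gaps on the autosomal arms, which include the 632, replicate 2 bridged 28.8%. In 153 of the 207 cases (73.9%) the bridging region was shorter than the stretch from the start of the left region to the end of the right one. In 73 cases it was shorter than the longer of the pair. The shortest bridging region was 1322 bp long. With the demand that a bridging region hold at least 50% of the region on each side, replicate 2 bridged 14.7% of the gaps. The set list bridged 352 gaps (55.7%, against 55.0% of all 911), its bridging region was shorter than the pair in 22 cases, and the demand for 50% left 54.0%. The set list covered 627 members (82.5%) over their whole length, and replicate 2 covered 140 (18.4%). The set of replicates includes replicate 1 itself, so its agreement with the pieces of replicate 1 is not a separate measurement.

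The outcome of a gap in replicate 2 depended first on whether both sides were present there. At 150 of the 632 gaps 1 side had no replicate 2 region, so no bridge was possible. At the remaining 482 gaps replicate 2 bridged 42.9%, against 42.1% of the 623 autosomal gaps under 1000 bp with both sides matched. The 623 include the 482, so these shares had to lie close. Of the 141 such gaps beside no member, replicate 2 bridged 39.0%. Between a pair of members it bridged 112 of 241 gaps (46.5%). Next to a region of 5 to under 10 kb it bridged 50 of 129 (38.8%), and next to one of 10 kb or more 45 of 112 (40.2%). The set list bridged 62.7%, 57.4% and 63.4% of these 3 kinds, and 37.3% of the 150 gaps next to a short region that was not matched in replicate 2. A broad neighbour was thus not accompanied by a clearly higher share of joins in either list.

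Narrow gaps were bridged more often than wide ones. Between members, replicate 2 bridged 29 of 34 gaps under 100 bp (85.3%), 60.0% of 50 gaps of 100 to 249 bp, 45.6% of 57 gaps of 250 to 499 bp, 31.0% of 58 gaps of 500 to 749 bp and 21.4% of 42 gaps of 750 to 999 bp. The set list bridged 97.1%, 92.0%, 50.9%, 50.0% and 33.3% in the same classes. Beyond the limit of the rule, gaps between short matched regions were bridged in 13.0% of 154 cases at 1000 to 1999 bp and in 5.15% of 97 cases at 2000 to 2999 bp by replicate 2, and in 26.0% and 12.4% by the set list. The limit of 1000 bp therefore lies on a gradual decline. The order of the classes was the same when the gaps were taken from replicate 2 and bridged by replicate 1, with 87.0%, 77.1%, 59.1%, 45.7% and 33.9%.

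**Figure D3:**
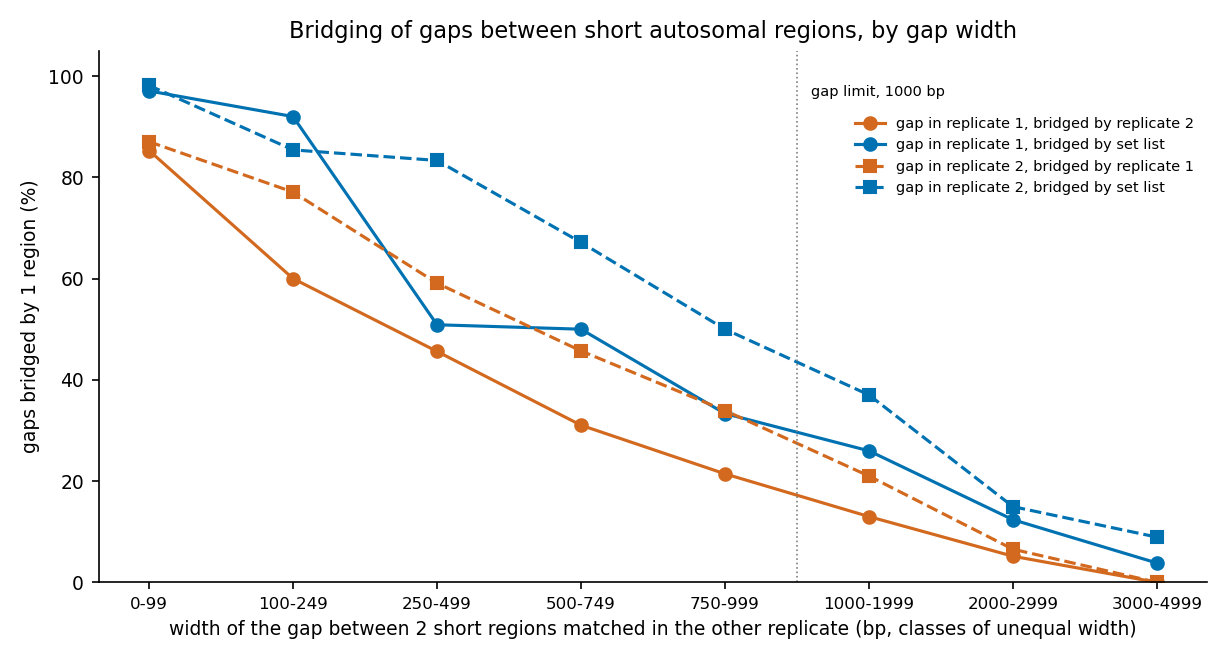
The percentage of gaps bridged by 1 region (y axis) is plotted against the width of the gap in bp (x axis, classes of unequal width) for gaps between short autosomal regions matched in the other replicate, taken from replicate 1 (solid) or replicate 2 (dashed). All 4 lines are highest under 100 bp, from 85.3% to 98.1%, and lowest at 3000 to 4999 bp, where they reach at most 8.93%.

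The direction of the comparison mattered for the level and not for the order of the lists. Members defined in replicate 2 by the same rule numbered 775, and replicate 1 joined 55.5% of them, 16.0 percentage points more than replicate 2 joined of the members of replicate 1. Most members were thus joined by the other replicate in this direction, and most were not in the main one. The set list joined 74.7% of them. The set list was ahead of the other replicate by 20.7 points for members defined in replicate 1 and by 19.2 points for those defined in replicate 2. For regions of 10 kb or more it was ahead by 18.9 and 22.5 points. With 2 replicates of 1 condition no test of these differences was possible. The lists held unequal numbers of regions, and the part of list size in these differences was not tested.

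Gaps that were not bridged had different widths in the lists. At 275 gaps beside a member both sides had a replicate 2 region and the gap was open, and the median width was 534 bp in replicate 1 and 867 bp in replicate 2, where it was wider at 215 of them, up to 5002 bp. The rule kept widths in replicate 1 below 1000 bp and set no such limit in replicate 2. Widths in the replicates ranked weakly alike, with a Spearman correlation across gaps of 0.213. At the 279 gaps not bridged by the set list the median was 577 bp in replicate 1 and 276 bp in the set list, which was wider at 31. The correlation was 0.521 over these 279 gaps, and replicate 1 is part of the set. Replicate 2 and the set list both left 264 of the 632 gaps open (41.8%), 161 were bridged by the set list alone and 16 by replicate 2 alone. At 94 of the 264 and 56 of the 161, a side had no replicate 2 region, so replicate 2 could not bridge them.

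The clusters with the most members showed each of these outcomes. The first lay on 2R from 5288997 to 5308742 and held a 5.32 kb region followed by members of 2.21, 4.08, 3.47 and 3.06 kb, with gaps of 197, 393, 540 and 486 bp. Replicate 2 called regions of 7.19, 3.78 and 6.79 kb there, and the set list called regions of 7.62, 4.12, 3.65 and 3.87 kb. The last pair of members was thus 1 region in replicate 2 and 2 regions in the set list, with a gap at that place of 486 bp in replicate 1.

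On 3L from 7831167 to 7847236, 4 members of 4.36, 4.68, 2.69 and 3.40 kb were separated by 642, 145 and 142 bp. Both other lists kept the first apart and fused the rest, as 10.95 kb in replicate 2 and 11.9 kb in the set list. On 3L from 17648833 to 17662081, members of 2.82, 3.72, 2.15 and 3.37 kb had gaps of 34, 878 and 269 bp. Replicate 2 made them 2 regions of 6.69 and 5.22 kb, split at the gap of 878 bp, and the set list made them 1 region of 13.4 kb.

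On 2L from 125057 to 140052 there were 4 members and 1 region that was not matched in replicate 2. Replicate 2 fused the first pair into 6.64 kb and kept the others apart, and the set list called 6.71, 2.24 and 8.39 kb. On 2L from 15326373 to 15337872, members of 1.61, 1.48, 1.76 and 4.34 kb had gaps of 910, 667 and 727 bp. Replicate 2 called 4 regions there as well, but with other borders, so that 1 region bridged each of the first pair of gaps and the longest member was split. On 2R from 9425759 to 9434389, gaps of 307, 233 and 242 bp divided members of 2.83, 1.94, 1.74 and 1.34 kb. Replicate 2 had 3 regions there of 1.95, 1.87 and 1.76 kb, and the set list had regions of 2.94 and 5.63 kb.

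**Figure D4:**
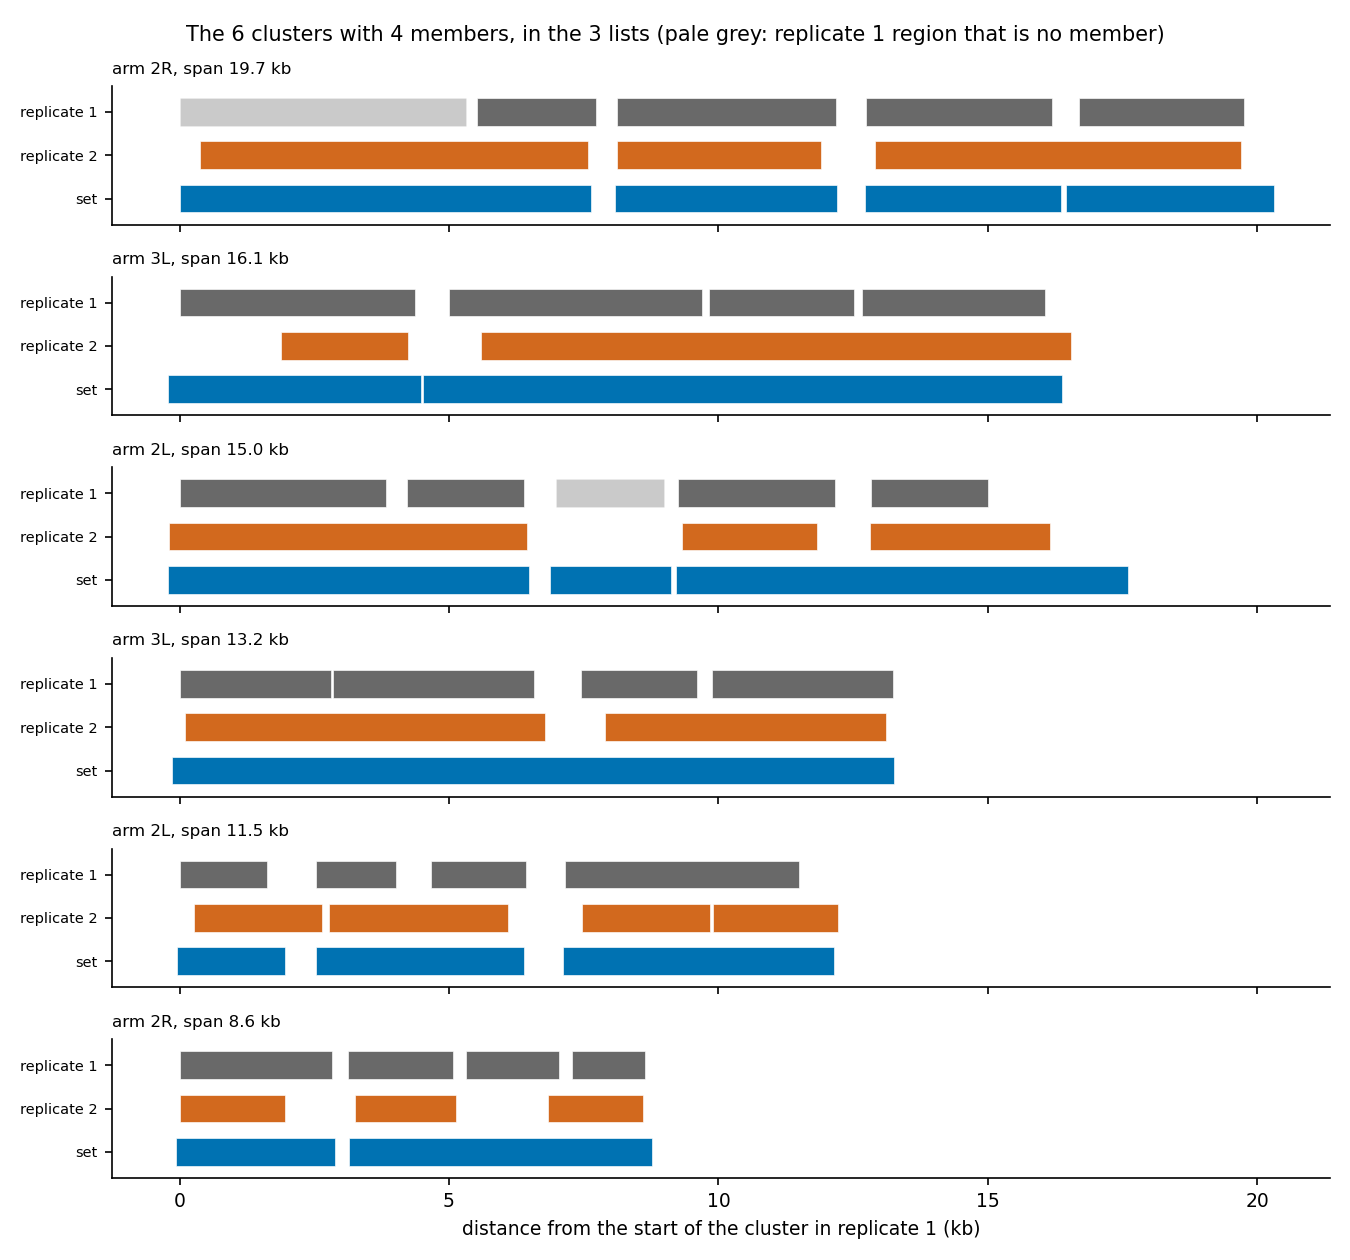
Bars are called regions in the 6 clusters that hold 4 members, drawn to scale by distance from the cluster's start (x axis, kb), with 1 row for each of the 3 lists. The set list draws the second cluster on 3L, 13.2 kb in span, as 1 region, and replicate 2 draws it as 2.

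Of the 36 clusters with 3 members, the 2 with the longest spans were taken next, a choice that favours clusters with a broad domain. On 3R from 2729263 to 2876148 a domain of 134.9 kb was flanked by members of 4.70 and 3.12 kb on one side and 2.73 kb on the other, at gaps of 273 and 307 bp next to the domain and 824 bp between the first pair. Replicate 2 bridged none of the 3 gaps and called the domain itself as 107.7 and 26.9 kb. The set list also kept the 3 gaps open. On 2L from 14468234 to 14545615, 3 members of 3.52, 2.43 and 2.88 kb lay between regions of 52.0 and 7.97 kb. Replicate 2 bridged the gaps of 194 and 18 bp among them, with a region of 6.15 kb, and left the gaps of 675 and 685 bp to the long neighbours open. The set list called 1 region of 92.9 kb across the whole cluster.

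Among clusters with 3 members in which replicate 2 bridged no gap, the next 4 by span were also examined. The one on 3L from 12032300 to 12048890 had members of 1.71, 4.20 and 2.86 kb followed by a region of 6.27 kb, and the set list joined the last member to it as 9.83 kb. Those on 2L from 20775526 to 20786422 and on 3L from 8068591 to 8077895, with gaps of 651 to 854 bp, were left as 3 regions by both other lists. The one on 2R from 3259019 to 3269460 lay in a single region of 19.6 kb in the set list, and replicate 2 had 3 regions of 1.42, 3.51 and 5.01 kb there. That set region also overlapped a replicate 1 region of 7.65 kb outside the cluster. Replicate 2 left 304 of the 489 clusters (62.2%) without any bridge, bridged 76 in part and 109 (22.3%) at every gap. The 304 include 112 clusters of short regions with a single member. No other region of these 112 was matched in replicate 2, so no bridge was possible there. The set list left 190 (38.9%) without a bridge, bridged 72 in part and 227 (46.4%) at every gap.

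The 5 longest replicate 2 regions that overlapped at least 2 members each overlapped a domain that was broad in replicate 1. Choosing them by length favours such regions. The first lay on 3L from 22340586 to 22404671, with a length of 64.1 kb and a score of 1.26, and joined a domain of 57.4 kb to a member on each side, across 455 and 42 bp. The next, 30.1 kb on 3R from 5731620 to 5761742, joined regions of 16.5 and 9.26 kb and 3 members. A region of 26.1 kb on 3L from 445354 to 471410 joined 3 members to a domain with a replicate 1 length of 33.8 kb, so it was shorter than the domain it reached. A region of 25.9 kb on 3L from 8014730 to 8040613 took in 2 members and 18.7 kb of neighbour. The last of the 5, 17.8 kb on 3L from 15221046 to 15238851, overlapped 2 members and bridged the gap of 647 bp to a region of 13.4 kb.

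Of the set regions that bridged a gap between a pair of members which replicate 2 had not bridged, the 5 longest were examined. The longest of them was a region of 52.8 kb on 3L from 19000257 to 19053042, across a gap of 621 bp between members of 4874 and 2353 bp. At that place replicate 2 had a gap of 2349 bp. Regions of 27.5 kb on 3L (8826299 to 8853823) and 23.8 kb on 3R (485353 to 509184) spanned gaps of 814 and 193 bp that were 1420 and 145 bp wide in replicate 2. The others were 23.8 kb long on 3L from 3515649 to 3539406 and 19.6 kb long on 2R from 3249872 to 3269474, at gaps of 432 and 852 bp. Each of the 5 also overlapped a longer replicate 1 region, of 32.3, 13.5, 19.7, 8.61 and 7.65 kb in the order named. None of them was thus made of short regions only.

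The score, the authors' own value per region, was compared within each list, because no source used here states its scale. Members had a median score of 0.610 in replicate 1 (interquartile range from 0.535 to 0.706, range 0.235 to 1.72), against 0.594 for isolated short regions and 0.597 for all autosomal regions. The members' median was thus 0.0165 above that of isolated regions. For the regions that overlapped them the difference was 0.0370 in replicate 2 (0.695 and 0.658) and 0.0684 in the set list (0.604 and 0.535), on each list's own scale. Joined members can share 1 such region, whose score then counts more than once. The longest overlapping regions had medians of 2767 bp for members and 2055 bp for isolated regions in replicate 2. In the set list these medians were 5596 and 3168 bp. Members themselves were also longer in replicate 1, with medians of 2454 and 2282 bp. The replicate 1 score ranked with length among members (Spearman correlation across regions of 0.751). By length, the median score was 0.501 for 209 members under 2000 bp, 0.614 for 284 of 2000 to 2999 bp, 0.704 for 160 of 3000 to 3999 bp and 0.756 for 107 of 4000 bp or more.

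Members that were joined in replicate 2 had not scored higher in replicate 1. Their median in replicate 1 was 0.595, against 0.620 for the 460 members not joined, while the region that overlapped them in replicate 2 had a median of 0.759, against 0.665. In the set list the medians in replicate 1 were 0.601 for joined and 0.637 for other members, and those in the set list were 0.634 and 0.567. Joined members were shorter, with medians of 2325 and 2563 bp in the split by replicate 2, and their smallest gap was narrower, at 238 against 509 bp. Length, score and gap width moved together here, and the part of each was not tested. The scores of the pair of members beside a gap had a Spearman correlation across 241 gaps of 0.12. The scores of both replicates had a correlation across regions of 0.440 for all 760 members, of 0.578 for those not joined in replicate 2, and of 0.564 for isolated regions. Joined members can share 1 replicate 2 region and thus 1 score, so the 760 pairs of scores are not all separate. The first of these values is therefore not directly comparable with the others.

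**Figure D5:**
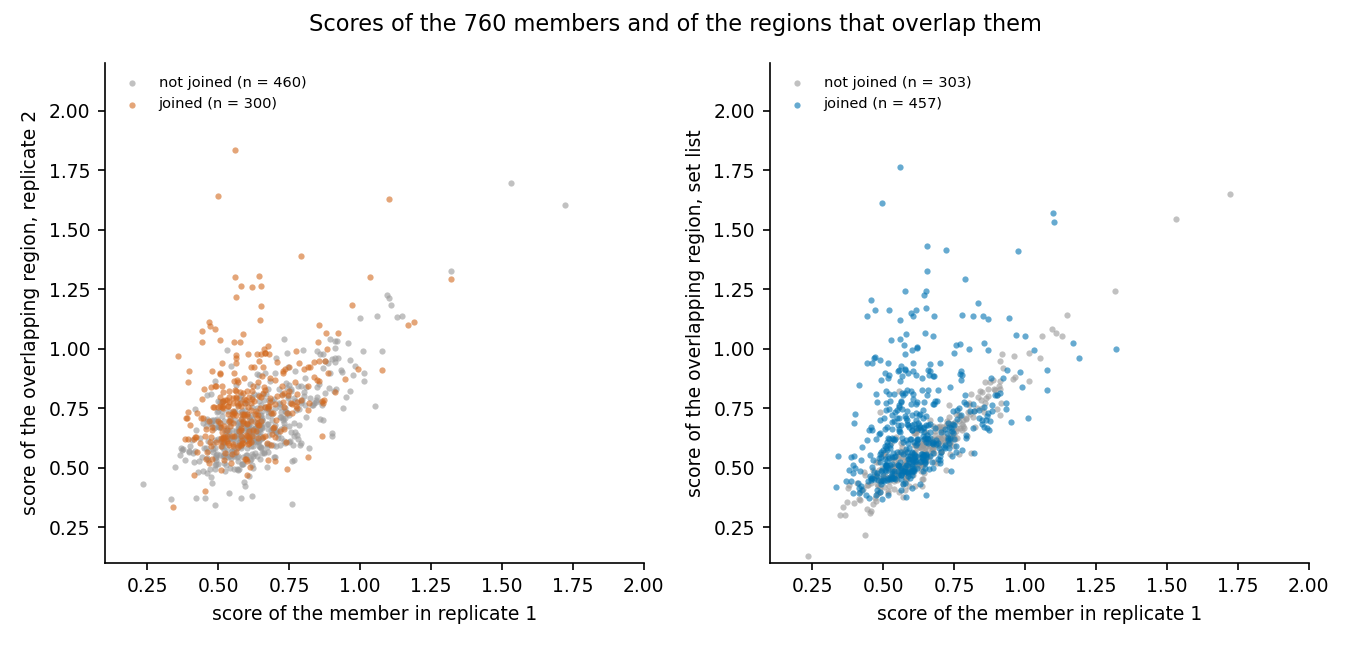
Each point is 1 of 760 members, with its score in replicate 1 (x axis) and the score of the region with the largest overlap (y axis, the list's own scale) in replicate 2 (left) and the set list (right); colour marks members joined to a close neighbour. Joined members have median scores of 0.595 (left) and 0.601 (right) in replicate 1, and grey points 0.620 and 0.637.

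Members with a close neighbour on both sides were joined more often than those with 1, which have fewer gaps to be bridged. There were 113 members of the first kind, of which 66.4% were joined in replicate 2 and 85.8% in the set list, and 647 of the second, of which 34.8% and 55.6% were joined. By length, the share joined in replicate 2 ran from 45.9% for members under 2000 bp to 34.6% for those of 4000 bp or more. The share in regions of 10 kb or more was lowest for members under 2000 bp, at 4.78% in replicate 2 and 18.2% in the set list, and highest for those of 4000 bp or more, at 14.0% and 47.7%. On single arms replicate 2 joined 50.0% of the members on 2L, 33.1% on 2R, 37.2% on 3L and 38.6% on 3R. For all regions of these arms, which include the members, 2L was also first at 14.5%. There 2R, at 9.75%, was almost level with 3R at 9.80%. The set list joined 63.5% of the members on 2L and 62.8% on 3L, but for all regions 3L was first at 23.7%, with 2L at 22.0%.

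Of the 5 members with the highest scores, 3 were joined to no close neighbour in either list. The first lay on 3R from 12062836 to 12067433, was 4598 bp long and scored 1.72, and its counterparts measured 4472 bp in replicate 2 and 4715 bp in the set list. Its neighbour, 669 bp away, was 7476 bp long and scored 1.86. The second lay on 3L from 16039821 to 16044157 and scored 1.53, with a neighbour of 9002 bp at 531 bp that was not joined to it in either list. The fourth, on 3R from 25040894 to 25045535 with a score of 1.32, lay 575 bp from a region of 12373 bp and stayed separate as well. The third and the fifth were joined. The third, on 3R from 1082721 to 1085967 with a score of 1.32, lay 95 bp from another member and was part of regions of 3604 bp in replicate 2 and 7239 bp in the set list. The fifth, on 2R from 15350671 to 15355139 with a score of 1.19, had close members on both sides and was part of regions of 6960 and 7327 bp.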

How the data were processed

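Per the labels' protocols, formaldehyde-crosslinked embryo chromatin was immunoprecipitated. The submitters' processing notes name Bowtie 0.12.7. Regions are on FlyBase release 5, per the file headers, and each has a deposited score. The scale of the score, the calling program, its threshold and the combination of the replicates are not stated in any source used here. Lists were used as deposited and regions were not merged or trimmed. A gap is the number of bases between neighbouring regions of a list. It is bridged if 1 region of the other list overlaps both sides by at least 1 bp. With 2 replicates of 1 condition no test was run, and depth is unknown.

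The members, groups and alternatives were chosen with earlier results of these data known. Named regions are the 8 clusters with the most members (ties by span), the 5 highest-scoring members, the 5 longest replicate 2 regions that overlap at least 2 members and join 1 of them to a close neighbour, the 5 clusters with the most members, ties by span, and no bridge in replicate 2 (the domain of 134.9 kb on 3R belongs to 2 of these groups), the 5 longest set regions that bridge a gap which replicate 2 does not and which has members on both sides, and regions at the limits. The 8 alternatives changed the limits of length and gap, the overlap, the score threshold of each list, the defining replicate and the meaning of a bridge. The code was checked on a simulated list made from the 4262 autosomal regions, in which 200 of 200 planted joins were found and 0 others. Lists were handled with pandas 2.3.3 and NumPy 2.4.6 in Python 3.11.15, correlations computed with SciPy 1.17.1 and plots drawn with matplotlib 3.10.9.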

Additional observations from a re-analysis of the deposited data

How the results depend on the processing

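Of 58 alternative values, 39 stayed within 1.5 times the count of members or within the SD between the values obtained from members of either replicate (n = 2), and 19 moved further. The values with members defined in replicate 2 were themselves used for that SD. Except for the count of members, they therefore had to fall among the 19. The score difference from isolated regions kept its sign under every alternative run for it. The share of members joined by the other replicate, 39.5%, passed 50% with members defined in replicate 2. The number of members was 493 with a length limit of 3000 bp, 460 with a gap limit of 500 bp and 235 with replicate 1 regions at or above their median score. That score threshold raised the share in regions of 10 kb or more to 14.0% in replicate 2 and 41.3% in the set list. A gap limit of 500 bp raised the share joined by the set list to 72.2% and the share of gaps bridged by it to 68.8%. Without the demand for overlap with replicate 2, 27.6% of members were joined in replicate 2 and the score difference from isolated regions was 0.0259. With regions at or above the median score in the joining lists, replicate 2 joined 25.8%. With at least 50% of each side held, it joined 17.9% and bridged 14.7% of gaps. Members defined in replicate 2 gave 55.5% joined by the other replicate and 74.7% by the set list, 13.4% and 35.9% in regions of 10 kb or more, 48.3% and 70.0% of gaps bridged, and a score difference of 0.0280. Regions without a replicate 2 overlap cannot be joined there, so dropping the demand for overlap lowered the share joined in replicate 2 by construction. The cause of the other shifts, that of the score difference among them, was not tested. No paired analysis was possible because values exist for 1 group only and inputs carry none. Leaving out a replicate was not run, since the rule needs both. Depth is unknown, so its effect on narrow gaps was not tested.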

Other observations

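Some neighbours in replicate 1 were divided by almost nothing. Gaps of 0 bp, where 1 region begins at the base after the end of another, occurred 3 times beside a member. On 2R the regions that meet at 2565600 were 2125 and 3112 bp long with scores of 0.529 and 0.479. There replicate 2 had a region of 2458 bp across the border and the set list one of 5249 bp. On 2R at 7870717, regions of 1415 and 2609 bp scored 0.341 and 0.665, and the bridging regions were 1604 and 4099 bp long. On 3R at 7612675, only the set list had a bridging region, 1907 bp long. The lists are thus not merged by distance, and the set list itself has 247 gaps under 100 bp on the autosomal arms. Of the 87 gaps under 100 bp beside a member, 3 were open in both other lists. The narrowest was 44 bp wide on 2R from 9896285 to 9896328, between regions of 1806 and 9415 bp, and it was 1022 bp wide in replicate 2 and 99 bp in the set list. These places were chosen after their values were seen.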
